A study of Mus musculus with 11 samples.

Results

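Lacrimal glands of *Tlr7* KO NOD mice were compared with those of *Ifnar1* KO NOD mice, the knockouts of a sensor that can lead to type I interferon (IFN) and of the receptor that type I IFN acts on. RNA from whole glands of 5 *Tlr7* KO and 3 *Ifnar1* KO mice was sequenced, which is 8 of the 11 libraries of the series, with 1 library per mouse and, as stated for WT and *Tlr7* KO, 1 gland per library. The other 3 libraries came from wild-type (WT) mice, which were not part of the test and whose levels are given beside those of the knockouts. Of the 19058 genes listed, 14699 passed a minimum of 30 counts summed across the 8 knockout mice and were tested.

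All mice were males of the inbred NOD strain, which spontaneously develops lymphocytic inflammation of the lacrimal gland. The *Tlr7* KO mice carry a 2 base-pair deletion made by CRISPR/Cas9 in NOD embryos, and the line carries this 1 allele after a single further cross to the parent strain. *Tlr7* is X-linked, so these males hold 1 copy of the gene. The *Ifnar1* KO mice carry the em16 allele of *Ifnar1* on NOD. Both alleles are germline, so no promoter or cell type restricts them. WT and *Tlr7* KO glands were taken at 20 to 22 weeks of age, while the age of the *Ifnar1* KO mice is not given in the sources used here. The authors dropped a further *Ifnar1* KO mouse that had inflammation like that of WT, so the 3 *Ifnar1* KO mice are a selected group. The sources do not say which mice shared a litter or cage, so p-values measure only the spread between these samples.

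TLR7 is an endosomal receptor of macrophages, dendritic cells and B cells that recognizes single-stranded RNA and signals through the adaptor MyD88, which can lead to the production of type I IFN. IFNAR1 is a chain of the cell surface receptor for all type I IFN. Once bound, the receptor activates transcription factors that switch on the interferon-stimulated genes, many of which encode proteins that block viral replication. Loss of TLR7 therefore leaves the receptor for type I IFN in place, while loss of IFNAR1 removes the response to type I IFN from any source.

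The 8 libraries held 24857275 to 28814250 counts. Their log2 levels correlated at 0.983 to 0.993 among *Tlr7* KO mice, 0.98 to 0.987 among *Ifnar1* KO mice and 0.97 to 0.985 between the groups. The first principal component (38.7% of the variance) separated the groups, with *Ifnar1* KO 2 nearest to the *Tlr7* KO mice. The gland's water channel gene *Aqp5* was at 127 to 156 CPM (counts relative to the TMM-scaled library total) in all 8 mice, and the basal and myoepithelial keratin gene *Krt5* at 5.26 to 7.80 CPM, so defining epithelial markers were present in every library. Some libraries stood apart. *Ifnar1* KO 2 and, less, *Ifnar1* KO 1 held salivary gland transcripts, *Tlr7* KO 4 held skeletal muscle transcripts, and the 10 genes with the most counts took 65.9% of the counts in *Tlr7* KO 5 against 56.4% to 59.5% in the other 7.

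Between the knockouts, 258 genes were differentially expressed (DE) at an adjusted p under 0.05 in edgeR's quasi-likelihood test, which is 1.76% of the genes tested. Of these, 135 (0.918%) were higher in *Tlr7* KO and 123 (0.837%) were higher in *Ifnar1* KO. At least 2-fold change was found for 90 DE genes (0.612%) that were higher in *Tlr7* KO and 50 (0.34%) that were higher in *Ifnar1* KO. An unadjusted p under 0.05 was found for 1234 genes (8.4%) higher in *Tlr7* KO and 1134 (7.71%) higher in *Ifnar1* KO. These shares of all genes are the background for the counts of each list below. Over all genes tested the median log2 difference was 0.0017, and 50.3% of estimates were above 0, where a positive value means higher in *Tlr7* KO. Of the DE genes, 52.3% were higher in *Tlr7* KO, against 30.9% after scaling by library size only, which shifts the median of all genes to -0.191. The count rose to 904 DE genes without *Ifnar1* KO 2. It was 149 without *Tlr7* KO 2, and 87 to 106 without any 1 of the other 6 mice.

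**Figure D1:**
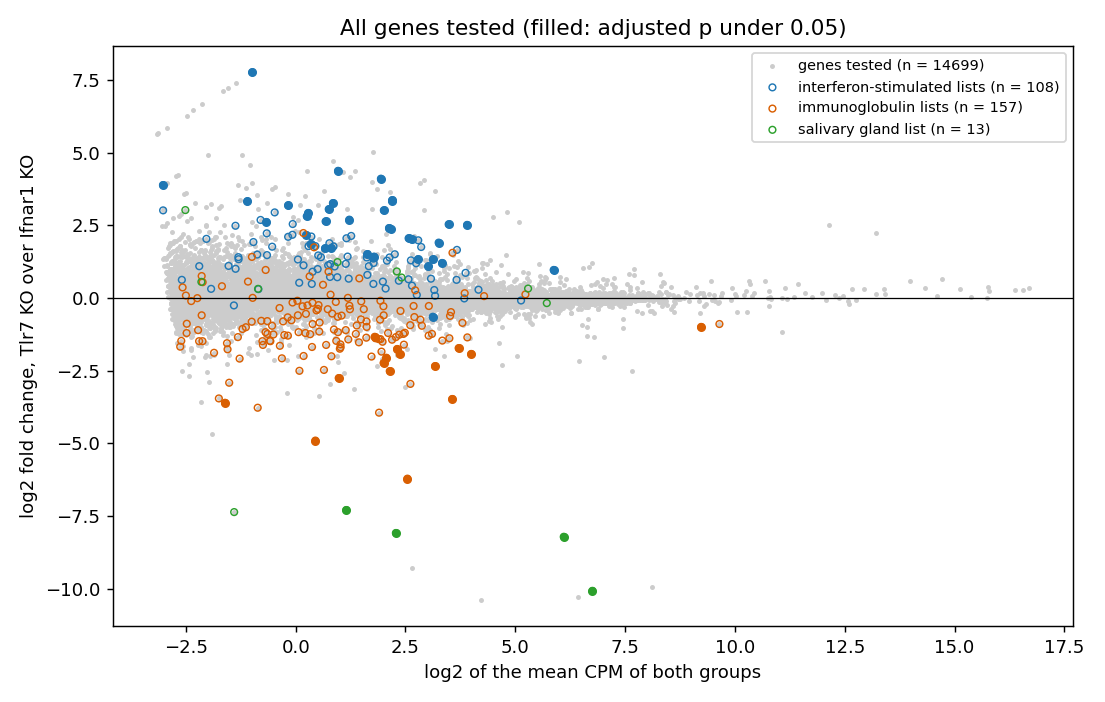
Each point is 1 of 14699 genes, with the log2 of its mean CPM over both groups on the x axis and its log2 fold change, *Tlr7* KO over *Ifnar1* KO, on the y axis; rings mark members of the interferon-stimulated, immunoglobulin and salivary gland lists, and filled points are DE. The interferon-stimulated genes lie mostly above 0 (104 of 108) and the immunoglobulin genes mostly below 0 (135 of 157).

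The targeted genes were read first. *Tlr7* (GRCm38, chrX:167304929-167330558, minus strand) was at 0.711, 0.728, 0.877, 0.460 and 0.831 CPM in the *Tlr7* KO mice and at 0.564, 0.763 and 0.232 CPM in the *Ifnar1* KO mice. The groups overlapped, and the log2 difference of 0.46 (SE 0.379, adjusted p = 0.59) did not pass the test. *Tlr7* was higher in every WT mouse, at 2.76, 1.43 and 2.53 CPM. A small deletion need not remove the transcript, so these levels do not check the *Tlr7* KO label.

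*Ifnar1* (GRCm38, chr16:91485238-91507441, plus strand) was likewise at similar levels in the knockouts. It was at 9.24, 10.4, 8.66, 8.31 and 7.72 CPM in *Tlr7* KO and at 7.67, 8.42 and 8.91 CPM in *Ifnar1* KO (log2 difference 0.09, SE 0.108, adjusted p = 0.72). The groups overlapped, so the transcript level does not mark the *Ifnar1* KO mice either. *Ifnar2*, the other chain of the receptor, had 4.55 to 6.79 CPM in *Tlr7* KO and 3.91 to 5.34 CPM in *Ifnar1* KO (log2 difference 0.29, adjusted p = 0.406).

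Interferon-stimulated genes were higher in *Tlr7* KO than in *Ifnar1* KO. Of 108 such genes tested, taken from 6 lists, 34 were DE and higher in *Tlr7* KO and 1 was higher in *Ifnar1* KO, which is 32.4% of the list against 1.76% of all genes. The estimate was above 0 for 104 of the 108, with a median log2 fold change of 1.43 (1.41 where genes at the count floor took their bound). The levels of all 5 *Tlr7* KO mice lay above those of all 3 *Ifnar1* KO mice for 65 of them, while 10.6% of all genes had groups that did not overlap, 5.56% with *Tlr7* KO above and 5.08% with *Ifnar1* KO above. Summed over the 108 genes, the level was 542, 933, 539, 517 and 706 CPM in *Tlr7* KO and 267, 416 and 233 CPM in *Ifnar1* KO. The lowest *Tlr7* KO mouse was above the highest *Ifnar1* KO mouse, which was *Ifnar1* KO 2. WT mice had 1300, 604 and 1280 CPM, so WT 2 lay within the range of the *Tlr7* KO mice.

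The count of 34 depended on single mice. It was 67 without *Ifnar1* KO 2, 7 without *Ifnar1* KO 1, 12 without *Ifnar1* KO 3, 23 and 22 without *Tlr7* KO 2 and *Tlr7* KO 4, and 12 to 15 without *Tlr7* KO 1, 3 or 5. The median over the 108 genes stayed between 1.11 (without *Ifnar1* KO 3) and 2.26 (without *Ifnar1* KO 2). In whole tissue, more cells of a kind and more RNA per cell cannot be told apart.

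The interferon-stimulated response element has the core letters GAAANNGAA, or TTCNNTTTC on the other strand. These letters were searched on both strands of RefSeq promoters (GRCm38.p6), 250 bases before to 50 bases after each start, with a promoter counted once however many matches, overlapping ones included, it holds. They were found in 21 of 70 genes with a promoter entry (30%) among the 90 that were DE and at least 2-fold higher in *Tlr7* KO, and in 1 of 25 (4%) among the 50 that were higher in *Ifnar1* KO. All genes tested had them in 962 of 10871 (8.85%) and all promoter windows in 2812 of 32851 (8.56%). Among the interferon-stimulated lists it was 50 of 85 (58.8%), and among the genes at least 2-fold higher in *Tlr7* KO outside these lists 6 of 45 (13.3%). A match of letters is a description and not a bound site. Windows of 29 bases are shown for genes whose levels are described next, 5′ to 3′ on the gene's strand with the matched letters in capitals. They lie at chr19:34640776-34640804 (*Ifit1*, plus strand), chr19:34583398-34583426 (*Ifit3*, plus strand), chr4:156200872-156200900 (*Isg15*, minus strand) and chr5:120907527-120907555 (*Oas1a*, minus strand), and the matches end 94, 112, 63 and 11 bases before the start site.
Ifit1: aggcttcagtTTCACTTTCcagtctcagt
Ifit3: ttaagtctgtTTCAGTTTCtactttcctc
Isg15: gtaggaaaagGAAACCGAAacagaaaata
Oas1a: cccttctcggGAAATGGAAactgaaaatc

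The oligoadenylate synthetase (OAS) family, which makes the messenger that activates RNase L on sensing double-stranded RNA, had the highest share of DE genes among the interferon-stimulated lists, 5 of 9, and all 9 estimates were above 0 (median log2 fold change 2.38). *Oas2* was at 0.497, 1.98, 1.02, 0.690 and 0.880 CPM in *Tlr7* KO. No *Oas2* count was found in any *Ifnar1* KO mouse, so its level was at least 9.68-fold higher in *Tlr7* KO, taking 3 counts per library as the floor (adjusted p = 0.0145). *Oas2* thus passed the count filter through *Tlr7* KO alone. *Oas1a* was at 7.32, 13.2, 8.10, 6.28 and 7.14 CPM in *Tlr7* KO and at 0.438, 1.73 and 0.232 CPM in *Ifnar1* KO, with a log2 fold change of 3.37 (SE 0.49, adjusted p = 0.011). The groups did not overlap, with *Tlr7* KO 2 the highest and *Ifnar1* KO 3 the lowest. *Oas1g*, *Oasl1* and *Oasl2* were DE at log2 fold changes of 3.19, 2.17 and 2.38. *Oas1a* and *Oas1g* belong to a cluster of near-identical copies, and the division of reads between them is uncertain.

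The list of IFIT, MX and other antiviral effectors held 19 of 38 DE genes higher in *Tlr7* KO, with 37 of 38 estimates above 0 and a median log2 fold change of 1.95. *Ifit1* (GRCm38, chr19:34640871-34650009), which binds viral RNA that lacks a host cap, was at 2.31, 5.50, 3.33, 1.95 and 3.28 CPM in *Tlr7* KO and at 0.250, 0.589 and 0.155 CPM in *Ifnar1* KO. Every *Tlr7* KO mouse was above every *Ifnar1* KO mouse, at a log2 fold change of 3.27 (SE 0.47, adjusted p = 0.0107). *Ifit3*, its partner in the same complex, was at 5.04, 11.4, 6.49, 4.64 and 8.21 CPM against 0.689, 1.32 and 0.620 CPM (3.02, SE 0.375, adjusted p = 0.00768). The groups did not overlap here either, and the call held with any 1 mouse left out.

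Other effectors changed in the same direction. *Ifit2* was DE at a log2 fold change of 2.82, *Slfn5* at 1.43, *Mx1*, a GTPase that blocks viral nucleocapsids, at 3.33, and *Ifi27l2a* and *Rtp4* at 2.54 and 2.41. The apolipoprotein L genes *Apol9a* and *Apol9b* were DE at 4.38 and 4.11, with *Tlr7* KO 2 far above the other *Tlr7* KO mice in each, and these copies share sequence. *Lgals3bp*, a secreted glycoprotein, was at 20.8, 37.2, 21.1, 21.7 and 26.8 CPM in *Tlr7* KO and at 3.29, 8.01 and 1.98 CPM in *Ifnar1* KO (2.52, SE 0.379, adjusted p = 0.0138). The exception on these lists was *Nt5c3*, a nucleotidase gene named after its values were seen, which was 0.64 lower on the log2 scale in *Tlr7* KO (9.91 to 12 CPM in *Ifnar1* KO against 6.21 to 7.51 CPM, adjusted p = 0.0166).

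**Figure D2:**
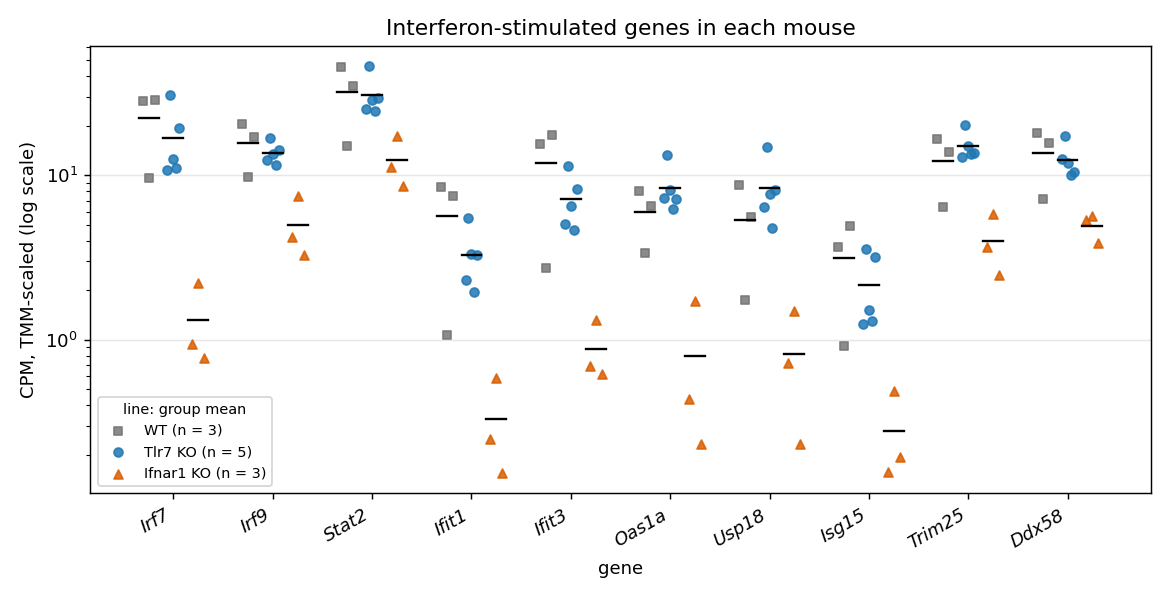
CPM on a log scale (y axis) for 10 interferon-stimulated or interferon signalling genes (x axis) in each WT, *Tlr7* KO and *Ifnar1* KO mouse; each symbol is 1 mouse and the line is the group mean. For all 10 genes the lowest *Tlr7* KO mouse lies above the highest *Ifnar1* KO mouse, for example 10.8 against 2.22 CPM for *Irf7*.

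Genes of ISG15 conjugation and PARP enzymes had 4 of 14 DE (median log2 fold change 1.33), the Ifi200 and Phf11 families 3 of 16 (1.37, or 1.13 where genes at the floor took their bound), and RNA sensors and TRIM proteins 3 of 17 (1.33). *Usp18*, the protease that removes ISG15 and dampens the receptor, was at 6.43, 14.9, 7.75, 4.75 and 8.16 CPM in *Tlr7* KO and at 0.720, 1.49 and 0.232 CPM in *Ifnar1* KO (3.34, SE 0.504, adjusted p = 0.0138). *Isg15* itself was DE at 2.93, *Herc6*, its ligase in mice, at 1.71 and *Parp12* at 1.09. *Phf11a* had at most 3 counts in each *Ifnar1* KO mouse and was at least 2.25-fold higher in *Tlr7* KO. With 5 to 8 counts in each *Tlr7* KO mouse, *Phf11a* passed the count filter only through that group. *Phf11d* and the DNA sensor gene *Ifi204* were DE at 1.51 and 1.86. *Ddx58*, which encodes the RNA sensor RIG-I, was at 12.5, 17.4, 11.9, 10.1 and 10.4 CPM against 5.32, 5.62 and 3.87 CPM (1.33, SE 0.196, adjusted p = 0.0123). *Dhx58*, its relative LGP2, was DE at 1.72, and *Trim25*, the ubiquitin ligase that acts on RIG-I, at 1.91 (adjusted p = 0.00875).

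Many of these calls depended on single mice. Of the DE interferon genes named, *Oas2*, *Ifit2*, *Ifit3*, *Slfn5*, *Apol9a*, *Ddx58*, *Trim25* and *Irf7* kept the call with any 1 mouse left out, and *Oas1a*, *Ifit1*, *Lgals3bp*, *Usp18* and *Irf9* lost it without *Ifnar1* KO 1 alone. *Dhx58* kept it in 6 of 8 omissions, *Isg15* and *Ifi27l2a* in 4, *Oasl1*, *Rtp4*, *Apol9b* and *Phf11d* in 3, and *Oasl2*, *Ifi204* and *Stat2* in 2. *Oas1g*, *Mx1*, *Herc6*, *Parp12* and *Phf11a* kept it in 1, the omission of *Ifnar1* KO 2. The size of the difference moved as well. Over one-mouse omissions the log2 fold change ran from 2.82 to 5.29 for *Mx1* and from 3.59 to 6.32 for *Apol9b*. It ran from 2.66 to 4.84 for *Oas1g* and from 2.97 to 4.59 for *Oas1a*, each highest without *Ifnar1* KO 2.

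The guanylate-binding protein and immunity-related GTPases, which respond strongly to IFN-γ as well as to type I IFN, held no DE gene among 14, although all 14 estimates were above 0 and the median log2 fold change was 1.36. An unadjusted p under 0.05 with higher levels in *Tlr7* KO was found for 6 of the 14, against 8.4% of all genes. Without *Ifnar1* KO 2 the median was 2.71, and without *Ifnar1* KO 3 it was 0.85. Their summed level was 45.6, 138, 34.5, 38.0 and 105 CPM in *Tlr7* KO and 17, 51.9 and 5.23 CPM in *Ifnar1* KO, so the groups overlapped, with *Ifnar1* KO 2 above 3 of the *Tlr7* KO mice. *Cxcl10*, a chemokine that IFN-γ induces, was at 0.924, 3.48, 0.561, 0.996 and 2.84 CPM against 0.344, 0.624 and 0.0775 CPM (log2 difference 2.28, SE 0.728, adjusted p = 0.158). No IFN ligand gene was tested: the table held 1 of the 20 listed, *Ifng*, which was below the count filter, as was the T cell cytokine gene *Il21*.

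Among receptors, STAT and IRF factors, 3 of 23 genes were DE and all were higher in *Tlr7* KO. *Irf7* (GRCm38, chr7:141262706-141266481, minus strand), the factor that amplifies type I IFN production, was at 10.8, 30.6, 12.5, 11.1 and 19.3 CPM in *Tlr7* KO and at 0.939, 2.22 and 0.775 CPM in *Ifnar1* KO. Its groups were far apart, with a log2 fold change of 3.67 (SE 0.478, adjusted p = 0.00875). *Stat2* and *Irf9* were DE at 1.31 and 1.46. Over the 23 genes the median was 0.31.

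Toll-like receptors and their adaptors had 1 DE gene of 24 and a median log2 fold change of 0.15, which turned to -0.04 after scaling by library size only. *Tlr13*, a sensor of bacterial ribosomal RNA, was at 2.1, 2.35, 1.23, 1.38 and 2.20 CPM in *Tlr7* KO and at 0.470, 0.624 and 0.387 CPM in *Ifnar1* KO (1.89, SE 0.305, adjusted p = 0.018), a call lost without *Ifnar1* KO 1, *Ifnar1* KO 3 or *Tlr7* KO 1. *Tlr8*, the neighbour of *Tlr7* on the X chromosome, was at 0.497 to 0.733 CPM against 0.194 to 0.797 CPM, with overlap (0.61, adjusted p = 0.543).

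Estimates for genes of macrophages and of chemokines were mostly above 0, although few of these genes were DE. Estimates of the other myeloid lists went both ways. Of 32 macrophage and monocyte genes, 31 had estimates above 0 (median log2 fold change 0.98). Of the 32, 24 had an unadjusted p under 0.05 and higher levels in *Tlr7* KO, against 8.4% of all genes. DE and higher in *Tlr7* KO were 2 (6.25%), against 0.918% of all genes. The 2 DE genes were *Fcer1g* and *Tyrobp*, the signalling adaptors of activating Fc and related receptors, at 1.29 (SE 0.236, adjusted p = 0.0293) and 1.21 (SE 0.252, adjusted p = 0.0429). *Adgre1*, which encodes the macrophage marker F4/80, was at 5.44 to 7.56 CPM in *Tlr7* KO and 1.94 to 5.30 CPM in *Ifnar1* KO, without overlap (0.93, adjusted p = 0.132). Dendritic cell genes had no DE member and estimates above 0 for 13 of 18 (median 0.30, lowest -3.38), and neutrophil and mast cell genes none and 6 of 9 (median 0.05). The plasmacytoid dendritic cell marker *Siglech* was at 0.230 to 1.09 CPM against 0.271 to 0.693 CPM (0.10, adjusted p = 0.944).

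Of 20 inflammatory or IFN-induced chemokine genes and receptors, all 20 had estimates above 0. Of these, 4 (20%) were DE and higher in *Tlr7* KO, against 0.918% of all genes. *Cxcl1*, a neutrophil attractant, was at 3.13, 5.54, 5.02, 3.56 and 3.03 CPM in *Tlr7* KO and at 0.845, 1.42 and 0.930 CPM in *Ifnar1* KO (1.93, SE 0.277, adjusted p = 0.0107). *Cxcl1* was at 0.920 to 1.47 CPM in WT, so the *Tlr7* KO mice were above the other groups. *Ccr2* and *Cx3cr1*, receptors of monocytes, were DE at 1.71 and 1.13. *Ccl7*, which had at most 3 counts in each *Ifnar1* KO mouse, was at least 4.61-fold higher in *Tlr7* KO and passed the count filter only through that group. Of 16 complement genes, 3 (18.8%) were DE and higher in *Tlr7* KO, against 0.918% of all genes. The 3 were *C3ar1*, the C3a receptor, at 1.41, *Cfb*, factor B of the alternative pathway, at 1.19 and *C1ra*, a protease of the classical pathway, at 0.70. All 9 of these DE genes except *Cxcl1* and *C3ar1* lost the call without *Ifnar1* KO 1 or *Ifnar1* KO 3 and at least 2 of the *Tlr7* KO mice; *Cxcl1* lost it without *Ifnar1* KO 1 alone, and *C3ar1* without *Ifnar1* KO 1 or 3.

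Immunoglobulin genes moved in the opposite direction. Of 157 heavy and light chain genes tested, 15 were DE and higher in *Ifnar1* KO (9.55% against 0.837% of all genes) and none was higher in *Tlr7* KO, where 5 had an unadjusted p under 0.05 against 69 higher in *Ifnar1* KO. The estimate was below 0 for 135 of the 157, with a median log2 fold change of -1.10. Summed over these genes, the level was 1600, 1490, 1280, 1370 and 884 CPM in *Tlr7* KO and 1890, 3530 and 2120 CPM in *Ifnar1* KO. Each *Ifnar1* KO mouse was above each *Tlr7* KO mouse, and *Ifnar1* KO 2 reached the WT levels of 3660, 2880 and 3260 CPM. *Ifnar1* KO 2 was also the knockout library with the most salivary gland transcripts (1120 CPM against 180 and 98 CPM in the other *Ifnar1* KO mice), whose part in the result was not tested. Without *Ifnar1* KO 1 and 2 together, 5 immunoglobulin genes were DE and higher in *Ifnar1* KO and the median was -0.64. Variable genes share sequence, and reads may be divided between them in an uncertain way. The median was -0.60 without *Ifnar1* KO 2 and -0.98 to -1.20 without any 1 of the other mice. The count of 15 was 15 and 14 without *Ifnar1* KO 2 and *Tlr7* KO 2, and it was 6 to 11 without 1 of the others.

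Constant region genes showed which antibody classes differed. *Ighg2c* (GRCm38, chr12:113285325-113288932, minus strand), of the IgG2c class that IFN-γ favours in B cells, was at 0.0711, 0.0404, 0.0351, 0.115 and 0.587 CPM in *Tlr7* KO and at 7.29, 22.7 and 4.42 CPM in *Ifnar1* KO. These are 1 to 12 counts per *Tlr7* KO mouse and 114 to 654 per *Ifnar1* KO mouse, and the log2 fold change was -6.21 (SE 0.712, adjusted p = 0.00562). WT mice had 47.1, 27.1 and 38.3 CPM. *Ighg2b* was at 1.71, 2.14, 1.79, 1.3 and 3.03 CPM in *Tlr7* KO and at 14.7, 37.9 and 12.7 CPM in *Ifnar1* KO (-3.47, SE 0.367, adjusted p = 0.00356). Neither gene's groups overlapped, and each call held with any 1 mouse left out. The log2 fold change of *Ighg2c* ran from -7.37 (without *Tlr7* KO 5) to -5.23 (without *Ifnar1* KO 2). That of *Ighg2b* ran from -3.74 (without *Ifnar1* KO 3) to -2.8 (without *Ifnar1* KO 2).

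The κ light chain gene *Igkc* was at 485, 449, 392, 403 and 284 CPM in *Tlr7* KO and at 610, 1100 and 686 CPM in *Ifnar1* KO (-0.99, SE 0.206, adjusted p = 0.0431). *Jchain*, which joins the units of polymeric IgA and IgM, followed it at 133, 135, 115, 109 and 82.5 CPM against 175, 327 and 199 CPM (-1.02, SE 0.207, adjusted p = 0.0394). Their groups did not overlap, but both calls were lost without *Ifnar1* KO 3 or without any single *Tlr7* KO mouse, and that of *Igkc* also without *Ifnar1* KO 1. The other constant genes tested, given to complete the list, did not pass the test: *Igha*, of the IgA class of secretions, had a log2 difference of -0.89 without overlap (adjusted p = 0.0833), *Iglc2* -0.95 (adjusted p = 0.158) and *Ighg1* -0.27 (adjusted p = 0.866). *Ighm* was at 47.5, 56.9, 22.2, 41.5 and 28.7 CPM in *Tlr7* KO and at 25.8, 79.1 and 2.48 CPM in *Ifnar1* KO. Those *Ifnar1* KO mice spanned the whole *Tlr7* KO range, and the difference of 0.13 (adjusted p = 0.946) changed sign without *Ifnar1* KO 1 (-0.05), *Ifnar1* KO 3 (-0.41) or *Tlr7* KO 2 (-0.03) and after scaling by library size only (-0.05).

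Of 79 heavy chain variable genes 8 were DE, of 68 κ genes 3, and of 3 λ genes 1, all higher in *Ifnar1* KO, and 67, 59 and 3 of their estimates were below 0. *Ighv2-6-8* was at 3.38, 3.54 and 1.05 CPM in *Ifnar1* KO and at most 0.246 CPM in *Tlr7* KO (-4.90, SE 0.681, adjusted p = 0.0101), and it was at most 0.255 CPM in WT. *Ighv1-55* was at 5.20, 5.72 and 4.07 CPM in *Ifnar1* KO and at 2.13, 2.18, 2.21, 1.69 and 1.66 CPM in *Tlr7* KO (-1.33, SE 0.161, adjusted p = 0.00667). These genes kept the call with any 1 mouse left out. *Ighv5-16* (-2.51), *Ighv1-75* (-2.23), *Ighv5-6* (-2.05), *Ighv14-3* (-1.93), *Ighv6-6* (-1.75), *Igkv12-41* (-2.75), *Igkv12-46* (-2.34), *Igkv12-44* (-1.72) and *Iglv1* (-1.92) were DE too, with groups that did not overlap, and each lost the call without 1 or more single mice.

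**Figure D3:**
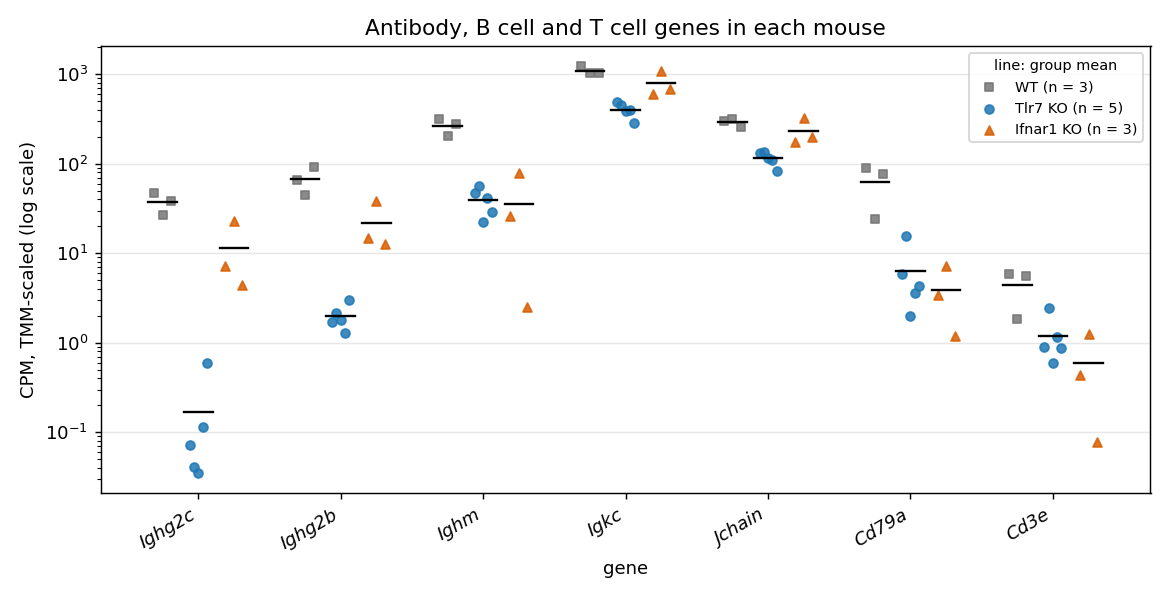
CPM on a log scale (y axis) for antibody genes and for the B cell and T cell markers *Cd79a* and *Cd3e* (x axis) in each mouse; each symbol is 1 mouse and the line is the group mean. *Ighg2c*, *Ighg2b*, *Igkc* and *Jchain* are higher in all *Ifnar1* KO mice than in any *Tlr7* KO mouse, while *Ighm*, *Cd79a* and *Cd3e* overlap.

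Markers of lymphocytes did not follow the antibody genes. All 31 B cell genes tested had estimates above 0 (median log2 fold change 0.91) and none was DE. An unadjusted p under 0.05 with higher levels in *Tlr7* KO was found for 4, against 8.4% of all genes. *Cd79a*, a chain of the B cell receptor complex, was at 5.86, 15.5, 2, 3.64 and 4.35 CPM in *Tlr7* KO and at 3.38, 7.14 and 1.2 CPM in *Ifnar1* KO (0.67, SE 0.654, adjusted p = 0.655). *Ms4a1*, which encodes CD20 (1.19, adjusted p = 0.556), overlapped in the same way. WT mice had 23.9 to 88.6 CPM of *Cd79a*, so the gene was low in both knockouts. Among 16 plasma cell genes *Jchain* alone was DE, and 10 estimates were below 0 (median -0.09). The secretory cells of the gland express several of the plasma cell genes, such as *Xbp1*.

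T cell genes also had estimates above 0 without a DE gene, 37 of 37 with a median log2 fold change of 1.01. *Cd3e* was at 0.888, 2.47, 0.596, 1.15 and 0.880 CPM in *Tlr7* KO and at 0.438, 1.25 and 0.0775 CPM in *Ifnar1* KO (1, SE 0.666, adjusted p = 0.49). *Cd4* (1.07, adjusted p = 0.419) and *Cd8a* (0.80, adjusted p = 0.604) overlapped too, and so did *Cxcl13*, the chemokine of B cell follicles (1.05, adjusted p = 0.293). The summed B cell level was 119 CPM in *Tlr7* KO 2 and 26.1 to 55.9 CPM in the other *Tlr7* KO mice, and it was 28.6, 55.3 and 11.3 CPM in *Ifnar1* KO. Without *Ifnar1* KO 2 the median was 1.80 for B cell genes and 1.93 for T cell genes, and without *Tlr7* KO 2 it was 0.34 and 0.51. *Ifnar1* KO 2 and *Tlr7* KO 2 were the highest mice of their groups for the B cell, T cell and interferon-stimulated sums alike, and the part of lymphocytes in the interferon result was not tested.

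**Figure D4:**
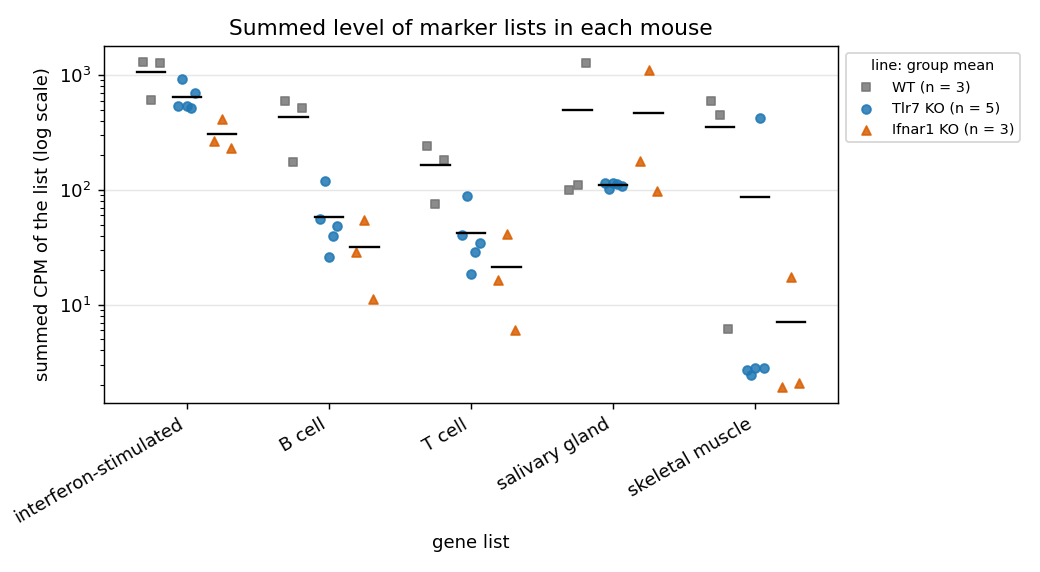
Summed CPM on a log scale (y axis) of 5 gene lists (x axis) in each mouse; each symbol is 1 mouse and the line is the group mean. Interferon-stimulated genes separate the knockouts, B cell and T cell genes overlap, and the salivary gland and skeletal muscle lists are high in some mice of a group and not in others (1120 CPM of salivary genes in *Ifnar1* KO 2 and 1290 CPM in WT 3, and 422 CPM of muscle genes in *Tlr7* KO 4 and 598 and 448 CPM in WT 1 and WT 2).

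The smallest p-value of the comparison belonged to *Mup6* (GRCm38, chr4:59964294-60007274, plus strand), a member of the major urinary protein family of pheromone carriers. It was at 51.5, 44.8, 55.8, 51.4 and 45.1 CPM in *Tlr7* KO and at 5.48, 6.41 and 7.32 CPM in *Ifnar1* KO (2.96, SE 0.118, adjusted p = 2.21e-06). WT mice had 4.30, 8.52 and 7.20 CPM, the level of *Ifnar1* KO. *Mup6* was the only DE gene of 6 in its family, whose members are near-identical, so assignment of reads among them is uncertain.

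The next smallest belonged to *Bcl6* (GRCm38, chr16:23965052-23988852, minus strand), a transcriptional repressor of germinal centre B cells and follicular helper T cells that other tissues express as well. It was at 51.1, 29.3, 32.7, 46.7 and 36.8 CPM in *Tlr7* KO and at 5.76, 5.06 and 6.12 CPM in *Ifnar1* KO (2.80, SE 0.199, adjusted p = 0.000352). WT mice had 26.2, 35.2 and 28.4 CPM, so the level was low in *Ifnar1* KO only. *S1pr2*, another gene of the 5 tested from the germinal centre list, was DE at 1.45 (adjusted p = 0.0276, kept in 1 of 8 omissions), and the other members tested, *Il21r* (1.04), *Cd200* (0.43) and *Fas* (0.01), did not pass. *Tlr7* KO 2, highest for B cell genes, had the lowest *Bcl6* level of its group.

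*Apobec3* (GRCm38, chr15:79891659-79915906, plus strand), a cytidine deaminase that restricts retroviruses, was at 55.5, 76.1, 70.9, 49.9 and 41.4 CPM in *Tlr7* KO and at 7.83, 13.2 and 7.40 CPM in *Ifnar1* KO (2.63, SE 0.256, adjusted p = 0.00208). The *Tlr7* KO mice were also above the WT mice, at 23.2, 8.16 and 26.4 CPM. With DE of 2.23 (SE 0.312, adjusted p = 0.0101), the odorant-binding protein gene *Obp1a* (GRCm38, chrX:78085505-78091374, minus strand), a secreted carrier of small lipophilic molecules, was at 16500, 21100, 9060, 16500 and 14700 CPM in *Tlr7* KO and at 2940, 2230 and 4810 CPM in *Ifnar1* KO. Its neighbour *Gm5938* (chrX:78125467-78130403) was DE at 2.51 (adjusted p = 0.00875), and each had WT levels (2450 to 7040 CPM for *Obp1a*) that overlapped those of *Ifnar1* KO. *Obp1a* lost the call without *Ifnar1* KO 1 (adjusted p = 0.0529).

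*Scgb1b19*, of the androgen-binding secretoglobins, was DE at 1.13, with 33.2 to 39.8 CPM in *Tlr7* KO and 9.36, 23.4 and 15.2 CPM in *Ifnar1* KO; the other 21 secretoglobin genes tested were not DE. The call of *Scgb1b19* was kept in 2 of 8 one-mouse omissions. Among the most abundant genes, *Actg1*, which encodes γ-actin, was DE at a small difference of 0.51 (SE 0.0729, adjusted p = 0.0107), at 375 to 409 CPM in *Tlr7* KO and 269 to 283 CPM in *Ifnar1* KO.

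**Figure D5:**
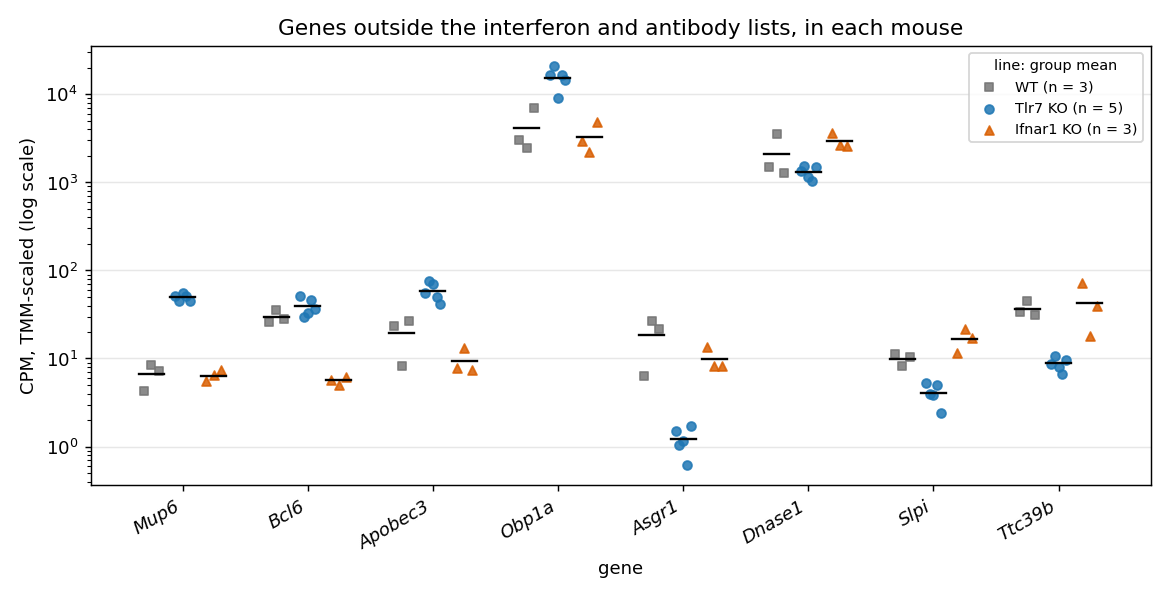
CPM on a log scale (y axis) for 8 genes outside the interferon and antibody lists (x axis) in each mouse; each symbol is 1 mouse and the line is the group mean. *Mup6*, *Apobec3* and *Obp1a* are higher in every *Tlr7* KO mouse than in any other mouse, *Bcl6* is lowest in *Ifnar1* KO, and *Asgr1*, *Slpi* and *Ttc39b* are lower in every *Tlr7* KO mouse than in any other mouse, while *Dnase1* overlaps with WT.

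Ranked by p-value in edgeR's test, genes higher in *Ifnar1* KO that encode neither antibodies nor salivary proteins were led by *Asgr1* (GRCm38, chr11:70054085-70057894, plus strand). *Asgr1* encodes a chain of the receptor that clears desialylated glycoproteins. It was at 13.4, 8.32 and 8.21 CPM in *Ifnar1* KO and at 1.49, 1.05, 1.16, 0.613 and 1.71 CPM in *Tlr7* KO (-3.06, SE 0.265, adjusted p = 0.00122). WT mice had 6.32, 26.9 and 21.6 CPM, so the level was low in *Tlr7* KO only. *Dnase1* (GRCm38, chr16:4036942-4040024), a secreted nuclease that digests extracellular DNA, was at 3630, 2670 and 2570 CPM in *Ifnar1* KO and at 1350, 1550, 1140, 1050 and 1510 CPM in *Tlr7* KO (-1.16, SE 0.158, adjusted p = 0.01). *Slpi*, an inhibitor of leukocyte proteases, was at 11.4, 21.5 and 16.9 CPM against 5.26, 4, 3.82, 5.06 and 2.40 CPM (-2, SE 0.239, adjusted p = 0.00667). None of these groups overlapped, and the calls held with any 1 mouse left out.

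*Ttc39b*, a regulator of cholesterol transport, was at 71.7, 18.0 and 39.8 CPM in *Ifnar1* KO and at 8.77, 10.8, 8.03, 6.74 and 9.63 CPM in *Tlr7* KO (-2.30, SE 0.341, adjusted p = 0.0126). The vomeronasal receptor gene *Vmn1r65* was at 329, 85.5 and 206 CPM against 43.1 to 63.0 CPM (-2.01, adjusted p = 0.0182), with *Ifnar1* KO 1 the highest for each. *Pmvk*, a kinase of cholesterol synthesis, was DE at -0.80 (adjusted p = 0.0101) and was 1 of 22 genes of that pathway. Among abundant metabolic genes, *Aldh3a2*, a fatty aldehyde dehydrogenase, and *Cyp4a12b*, a male-biased fatty acid hydroxylase, were DE at -0.52 and -0.46. *Dnajb9*, a chaperone of the endoplasmic reticulum, was the only DE gene of 26 for protein folding and secretion (-0.37, adjusted p = 0.0278), and *Nr4a2*, an immediate early transcription factor gene, the only one of 25 on its list (-1.09, adjusted p = 0.0271). The calls of *Dnajb9* and *Nr4a2* were kept in 2 of 8 one-mouse omissions, those of *Aldh3a2* and *Cyp4a12b* in 1 and that of *Vmn1r65* in 5, while *Ttc39b* and *Pmvk* kept theirs in all 8.

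Genes at low counts in WT entered this comparison because the count filter used the knockout mice. Of 1030 genes tested with a summed count under 30 over the WT mice, 8 were DE (6 higher in *Tlr7* KO, 2 higher in *Ifnar1* KO). This share is below the 1.76% found over all genes. Each of the 8 passed the count filter only through the group in which it was higher. The filter summed 5 *Tlr7* KO but 3 *Ifnar1* KO mice, so genes found in *Tlr7* KO alone passed more easily. The split of 6 and 2 is therefore not independent of the filter. *Csn3*, which encodes κ-casein, was at 0.711, 0.526, 1.16, 0.728 and 0.684 CPM in *Tlr7* KO, had at most 3 counts in each *Ifnar1* KO mouse, and was at least 7.27-fold higher in *Tlr7* KO. *Sgo2a*, a protector of centromeric cohesion, was at least 2.87-fold higher in *Tlr7* KO on the same floor. It had 5 to 11 counts in each *Tlr7* KO mouse and at most 1 in each *Ifnar1* KO mouse. *Klk1b27*, a kallikrein gene, *Ptgds*, a prostaglandin D2 synthase gene, and *Cct6b*, a chaperonin gene, were DE at 3.11, 2 and 1.5, all under 1 CPM. The calls of *Klk1b27*, *Ptgds* and *Cct6b* were kept in 1 of 8 one-mouse omissions and that of *Sgo2a* in 2, while *Csn3* lost it only without *Ifnar1* KO 3. *Adm2*, a calcitonin family peptide gene, was at 3.01, 0.243 and 1.51 CPM in *Ifnar1* KO and 0.115 to 0.213 CPM in *Tlr7* KO (-3.25, adjusted p = 0.0363, a call kept in 1 of 8 omissions), and apart from *Ighv2-6-8* it was the only such gene higher in *Ifnar1* KO. *BC051076*, a gene named only by a clone and chosen after its values were seen, was at 6, 6.27, 9.22, 4.67 and 6.60 CPM in *Tlr7* KO and at 0.0313, 0.520 and 0.0387 CPM in *Ifnar1* KO (5.03, SE 0.543, adjusted p = 0.0039), and WT mice had at most 0.0396 CPM.

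A few genes of saliva proteins had some of the largest differences in favour of *Ifnar1* KO. *Bpifa2* and *Cst10* stood on the lacrimal secretory list and the others on the salivary gland list. *Bpifa2*, *Smr3a*, *Amy1*, *Cst10*, *Dcpp1* and *Dcpp2*, which encode secreted proteins of saliva, were DE. The log2 fold changes of *Bpifa2*, *Smr3a* and *Amy1* were -9.93, -10.07 and -8.21. *Cst10*, *Dcpp1* and *Dcpp2* had at most 3 counts in each *Tlr7* KO mouse and were at least 316-fold, 81.6-fold and 37.1-fold higher in *Ifnar1* KO as a group mean. *Ifnar1* KO 2 carried these means: *Cst10* was at 8.39, 104 and 0.0387 CPM, *Dcpp1* at 1.35, 27.5 and 0.271 CPM and *Dcpp2* at 0.532, 12.4 and 0.31 CPM in the *Ifnar1* KO mice. Without *Ifnar1* KO 2 the log2 fold changes were -6.79 for *Bpifa2*, -6.68 for *Smr3a* and -5.38 for *Amy1*. The calls of all 6 genes were lost without any single *Tlr7* KO mouse, and those of *Amy1* and *Cst10* also without *Ifnar1* KO 1. *Bpifa2* was at 124 and 1540 CPM in *Ifnar1* KO 1 and 2, at 0.542 CPM in *Ifnar1* KO 3, and at 0.213 to 1.66 CPM in *Tlr7* KO. *Amy1*, salivary amylase, was at 38.0, 371 and 0.232 CPM in the *Ifnar1* KO mice and at 0.243 to 1.12 CPM in *Tlr7* KO, so *Ifnar1* KO 3 lay within the *Tlr7* KO range for *Bpifa2* and just below it for *Amy1*. WT 3 held them as well, at 1770 CPM of *Bpifa2* against 0.192 and 0.951 CPM in WT 1 and 2. *Chia1*, which is on neither list and was named after its values were seen, was DE at -10.28 (adjusted p = 0.0259). It was at 44.3, 470 and 0.116 CPM in the *Ifnar1* KO mice and at 0.0404 to 0.391 CPM in *Tlr7* KO.

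The 13 genes of the salivary gland list tested summed to 180, 1120 and 98.0 CPM in *Ifnar1* KO and to 103 to 115 CPM in *Tlr7* KO, and 4 of them were DE and higher in *Ifnar1* KO. Most other members did not share that direction: 7 of the 13 estimates were above 0, the median was 0.32, and 3 genes were higher in *Tlr7* KO at an unadjusted p under 0.05. In a fit without both *Ifnar1* KO 1 and *Ifnar1* KO 2, chosen after seeing the data, the log2 differences were 0.11 for *Bpifa2*, 0.36 for *Smr3a* and 1 for *Amy1* (adjusted p = 0.97, 0.889 and 0.633). In that fit the lone *Ifnar1* KO 3 is assumed to vary like the other mice, and 326 genes were DE, 213 higher in *Tlr7* KO. In it 31 interferon-stimulated genes were DE and higher in *Tlr7* KO, with a median of 2.65 over the 108. Of the 326 genes, 124 were also among the 258 DE genes of the fit with all 8 mice.

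Skeletal muscle genes summed to 422 CPM in *Tlr7* KO 4 and to 2.43 to 2.84 CPM in the other *Tlr7* KO mice, against 1.94, 17.3 and 2.09 CPM in *Ifnar1* KO. WT 1 and WT 2 held more than *Tlr7* KO 4, at 598 and 448 CPM, and WT 3 held 6.11 CPM. None of the 16 was DE, and their median log2 fold change of 3.72 became -2.92 without *Tlr7* KO 4.

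Of 24 lacrimal acinar and secretory genes, *Obp1a* was DE and higher in *Tlr7* KO, and the saliva genes *Bpifa2* and *Cst10* were DE and higher in *Ifnar1* KO, which is 12.5% of the list against 1.76% of all genes. Estimates went both ways (10 above and 14 below 0, median -0.06). Their summed level was 53900, 58300, 48200, 50300 and 63500 CPM in *Tlr7* KO and 34600, 43700 and 41200 CPM in *Ifnar1* KO, without overlap. The abundant *Obp1a* was 9060 to 21100 CPM of this in *Tlr7* KO and 2230 to 4810 CPM in *Ifnar1* KO. Without *Obp1a* the summed levels of the groups overlap. None of 24 duct and myoepithelial genes was DE (median -0.11, with 2 higher in *Tlr7* KO and 7 higher in *Ifnar1* KO at an unadjusted p under 0.05), and *Aqp5* (-0.11, adjusted p = 0.545) and *Krt5* (-0.08, adjusted p = 0.811) overlapped. Cytosolic ribosomal protein genes (86 tested, median 0.08) and nuclear genes of the respiratory chain (76 tested, median 0.05) had no DE gene by edgeR's test and lay near the median of all genes. The signs of the last 2 medians turned after scaling by library size only (-0.12 and -0.14), whereas those of the interferon-stimulated and immunoglobulin lists (1.23 and -1.26 under it) did not change.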

How the data were processed

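Whole lacrimal gland RNA was sequenced on an Illumina HiSeq instrument. The authors quantified the reads against the mouse transcriptome (mm10, Ensembl) with salmon followed by gene-level summing in tximport, and the deposited table holds these estimated counts as whole numbers with no size factor applied, although it is named as normalized. A second deposited table of counts per gene, from reads aligned with HISAT2 2.1.0 (counter not stated), was used as an alternative. The authors used DESeq2. Of the columns of per-sample values, 1 was not used because no sample here matches its name.

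Genes reaching 30 counts in total across the 8 knockout mice were tested with edgeR 4.0.16 (R 4.3.3, limma 3.58.1), using TMM scaling and the two-sided quasi-likelihood test, and p-values were adjusted by Benjamini-Hochberg across all genes tested. A gene with few counts in 1 group could pass the filter through the other group alone. With 5 *Tlr7* KO and 3 *Ifnar1* KO mice, this was easier for genes higher in *Tlr7* KO. A call needed an adjusted p under 0.05. CPM were computed on TMM-scaled library sizes. A group with at most 3 counts in every library was set to that floor and its fold given as a bound. Floors cover counting error only. The script was tested on simulated data.

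Named genes were *Tlr7* and *Ifnar1*, the 12 largest changes per direction (at least 2-fold, no overlap, mean of at least 5 CPM, no clone-type symbols), the 3 most abundant called genes per direction, up to 4 called genes per list, up to 5 called genes per direction low in WT, and set markers, of which some are not reported here. Of the genes eligible for the largest changes, 5 higher in *Tlr7* KO and 2 higher in *Ifnar1* KO were left out by symbol. The comparison, the members and the lists were chosen with earlier results of these data known. Alternatives were DESeq2 1.42.0, other scalings, filters and thresholds, all 11 mice in 1 fit, a block, the second table and the omission of each mouse. Gene positions are from GENCODE on GRCm38 and promoters from RefSeq. The mice are NOD, and reads were assigned on a C57BL/6 reference.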

Additional observations from a re-analysis of the deposited data

Results flagged for a closer look

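Of 156 values examined in the 5 *Tlr7* KO mice, 21 had 1 mouse far from the other 4, with a gap to the nearest of them above 0.71 of the whole range. Chance flags about 1 in 20 groups, and many of these values share genes or mice.

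*Tlr7* KO 2 was the highest for 9 of them. It had 7.44 CPM of *Apol9a* (2.53 to 3.13 in the others), 14.2 CPM of *Apol9b*, 13.2 CPM of *Oas1a*, 46.0 CPM of *Stat2*, 15.5 CPM of *Cd79a*, 4.45 CPM of *Ms4a1* and 7.80 CPM of *Cxcl13*. Its RNA sensor and TRIM genes summed to 125 CPM (83.5 to 91.8 in the others) and its immediate early and heat shock genes to 643 CPM (354 to 405).

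*Tlr7* KO 5 stood apart for 10. Its TMM factor was 0.742 (0.99 to 1.05 in the others), its 10 genes with the most counts took 65.9% of counts, and its secretoglobin genes summed to 859000 CPM (547000 to 592000). It was the highest for *Bpifa2* (1.66 CPM), *Smr3a* (0.489 CPM), *Ighg2c* (0.587 CPM) and *Scgb1b19* (39.8 CPM), and for the sums of ribosomal protein genes (12200 CPM) and nerve and Schwann cell genes (13.9 CPM). It was the lowest for fatty acid synthesis genes (747 CPM).

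*Tlr7* KO 4 was the highest for skeletal muscle genes (422 CPM) and for glycolysis genes (491 CPM against 423 to 441 in the others).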

How the results depend on the processing

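Counts of DE genes depended on the tool, the scaling and single mice, while the median directions of the interferon-stimulated and immunoglobulin lists did not change under any scaling or one-mouse omission. In the order total, higher in *Tlr7* KO, higher in *Ifnar1* KO, DESeq2 called 583, 335 and 248 genes (at least 2-fold 269, 188 and 81; interferon-stimulated 56; immunoglobulin 32). A fit of all 11 mice called 98, 45 and 53 (2-fold 62, 34 and 28; interferon-stimulated 12), an adjusted p under 0.01 called 30, 17 and 13 (2-fold 21, 13 and 8; interferon-stimulated 5; immunoglobulin 3), and a test against a fold minimum called 10, 6 and 4. Scaling by library size only called 54 higher in *Tlr7* KO, and at 2-fold 53 higher in *Tlr7* KO and 85 higher in *Ifnar1* KO. Robust dispersion left 32 2-fold genes higher in *Ifnar1* KO, 22 interferon-stimulated and 9 immunoglobulin genes. Without *Ifnar1* KO 1 and 2 together, an alternative chosen after seeing the data, 213 genes were higher in *Tlr7* KO (169 at 2-fold) and 5 immunoglobulin genes were called. The cause of these differences was not tested.

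The sources do not say whether mice with the same replicate number were paired. Deviations from the group mean correlated at 0.0604, 0.316 and 0.172 between mice of the same number. Mice of different numbers were not compared in this way, so these values cannot decide whether there was pairing. With a replicate block, 500 genes were DE, 370 higher in *Tlr7* KO (335 at 2-fold, 264 of them higher in *Tlr7* KO), with 66 interferon-stimulated and 26 immunoglobulin genes, and 194 genes were shared with the fit without it.

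Leaving out 1 mouse gave 87 to 904 DE genes, 38 to 544 higher in *Tlr7* KO and 42 to 360 higher in *Ifnar1* KO. At 2-fold it gave 46 to 480, 19 to 390 and 20 to 90. It gave 7 to 67 interferon-stimulated and 6 to 15 immunoglobulin genes. Of 83 named DE genes, 22 kept the call in all 8 omissions. The fit of all 11 mice kept the call for 38 of the 83, robust dispersion for 56, library size scaling for 67 and DESeq2 for 80. None of the 83 reversed direction in these fits. Called salivary genes with some of the largest differences reversed without *Ifnar1* KO 1 and 2: *Amy1* went from -8.21 to 1, *Bpifa2* from -9.93 to 0.11 and *Smr3a* from -10.07 to 0.36. Genes that were not called changed sign too: after library size scaling *Ifnar1* -0.09, *Ighm* -0.05 and *Siglech* -0.10, in the other table *Krt5* 0.01, without *Ifnar1* KO 1 and 2 *Ifnar1* -0.01, and with 1 mouse left out *Ighm* -0.41 to 1.45 and *Siglech* -0.23 to 0.31, while *Krt5* ran from -0.17 to 0.00. Some genes not DE in the main fit were called under other settings, out of 21. These were *Adgre1* in 4, *Cd4* and *Cxcl10* in 2, and *Cd79a*, *Cxcl13*, *Ighm* and *Tlr8* in 1. With 3 *Ifnar1* KO mice, genes at a few counts have wide errors.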

Other observations

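Cell cycle genes had no DE member by edgeR's test, while 33 of 35 estimates were above 0 (median log2 fold change 0.87). Of the 35, 19 had an unadjusted p under 0.05 with higher levels in *Tlr7* KO. Over all genes tested, 8.4% met this criterion, which is used for each list in this paragraph. The summed level of the cell cycle genes was 65.6, 73.3, 73.9, 71.6 and 62.8 CPM in *Tlr7* KO and 42, 61.1 and 38.7 CPM in *Ifnar1* KO, so the groups did not overlap. MHC class I presentation genes had estimates above 0 for 27 of 28 (median 0.97) and MHC class II genes for 13 of 14 (median 0.73), again with no DE gene, and 15 and 3 had an unadjusted p under 0.05 with higher levels in *Tlr7* KO. The groups overlapped for the summed levels of both MHC lists. The class I and class II medians were 0.67 and 0.35 without *Ifnar1* KO 3, and 1.58 and 1.43 without *Ifnar1* KO 2. Cytotoxic and NK cell genes had estimates above 0 for all 13 tested (median 1.28), with none DE and 6 at an unadjusted p under 0.05.

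The WT level lay on either side. Of the 135 genes DE and higher in *Tlr7* KO, the WT mean was above both knockout means for 63, between them for 53 and below both for 19. Of the 123 higher in *Ifnar1* KO, it was above both for 28, between them for 61 and below both for 34.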
